A study of Mus musculus with 20 samples.

Results

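Liver mRNA of 6 sensors of foreign nucleic acid was followed in 20 mice after siRNA against *Ppara* or control siRNA. The members were chosen by name: the 8 genes *Eif2ak2*, *Dhx58*, *Zbp1*, *Zc3hav1*, *Ifih1*, *Ddx58*, *Tlr3* and *Tlr7*, with every probe whose single gene symbol in the array annotation was one of these. Of the 8 genes 6 were found, with 7 probes, among 23493 probes and 15252 named genes; *Zc3hav1* had 2 probes, called here by their GenBank entries AK013726 and AK004770. For *Ddx58*, which encodes the RNA sensor RIG-I, and *Tlr7*, an endosomal receptor of single-stranded RNA, no probe carried the symbol, so neither was analysed here.

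There were 5 groups of 4 mice, which received vehicle, a *Ppara* siRNA (named PPARa siRNA or PPARa-M siRNA) or a control siRNA (GL3 or SEAP-M), and mice within a group carried the letters A to D. Each *Ppara* siRNA was directed at a different stretch of the *Ppara* mRNA, and the controls at GL3 and at the reporter secreted alkaline phosphatase (SEAP). All mice, vehicle included, received Ringer's solution under pressure through the tail vein (hydrodynamic injection), in a volume of 10% of body weight and with 40 µg siRNA in the siRNA groups, and livers were taken 48 h later. Strain, age and the meaning of the letter M are not given in the sources used here. On each array 1 mouse was set against pooled RNA of 4 vehicle mice. A log10 ratio of 0 is the level of the pool, a positive one is above it, and a ratio holds no absolute level from which to tell how abundant a transcript was. Neither the base of the logarithm nor the direction of the ratio is stated with the values. Base 10 was taken because values stop at 2 and -2, a 100-fold ratio; mouse over pool is the likely direction, from the lower *Ppara* that the study describes with its siRNAs. All signs below rest on it.

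The targeted gene was lowest with PPARa-M siRNA. Its mean log10 ratio over 4 probes ran from -0.317 to -0.177 with PPARa-M siRNA and from -0.126 to 0.0258 with PPARa siRNA. It ran from -0.0323 to 0.0653 in vehicle, from 0.00138 to 0.0610 in GL3 and from -0.0468 to 0.242 in SEAP-M mice, so that only the PPARa-M siRNA group lay below every mouse of the other groups. Array medians were between -0.0093 and 0.006. The interquartile range of the log10 ratios differed more, from 0.0442 to 0.1245, and its mean was 0.0919 in the PPARa-M siRNA group against 0.0532 in vehicle, 0.0540 in GL3, 0.0650 in SEAP-M and 0.0663 in PPARa siRNA mice.

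Cells recognise viral RNA and DNA, and some synthetic duplexes, by receptors in the cytoplasm and in endosomes. The RIG-I-like receptors *Ifih1* (MDA5) and *Dhx58* (LGP2) bind double-stranded RNA in the cytoplasm, MDA5 signalling through the adaptor MAVS and LGP2 adjusting that signal. TLR3, the product of *Tlr3*, binds double-stranded RNA inside endosomes. The kinase PKR (*Eif2ak2*) stops translation once it has bound double-stranded RNA, ZAP (*Zc3hav1*) binds CG-rich foreign RNA and recruits decay enzymes, and ZBP1 binds left-handed nucleic acid and can start necroptotic cell death. Most of these genes are themselves induced by interferon, through factors that bind the interferon-stimulated response element.

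Promoter sequences are shown for the 2 measured members that hold the core of this element, since both genes are described below and their patterns across mice differ. The core searched was GAAANNGAAA, on both strands, from 250 bases before to 50 bases after each annotated start, in the RefSeq promoters of the mouse build GRCm38.p6. Of the 8 listed genes 5 had an entry and 3 held the core, *Eif2ak2*, *Ifih1* and *Ddx58*, whereas *Tlr3* and *Zc3hav1* did not; *Dhx58* and *Zbp1* had no entry. Among all 32851 promoters of that length 1131, or 3.44%, held it. The promoter of *Eif2ak2* is chr17:78882523-78882822 and that of *Ifih1* chr2:62646206-62646505, both on the minus strand and written along the gene; capitals mark the core, which begins 18 bases past the start in *Eif2ak2* and 32 bases past it in *Ifih1*. A match is only a match of letters.
Eif2ak2: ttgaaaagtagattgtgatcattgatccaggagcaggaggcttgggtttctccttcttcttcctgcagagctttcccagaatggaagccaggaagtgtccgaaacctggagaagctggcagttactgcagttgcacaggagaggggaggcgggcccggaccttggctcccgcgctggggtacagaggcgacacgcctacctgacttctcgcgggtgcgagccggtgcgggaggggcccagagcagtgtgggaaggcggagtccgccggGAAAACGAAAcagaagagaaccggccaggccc
Ifih1: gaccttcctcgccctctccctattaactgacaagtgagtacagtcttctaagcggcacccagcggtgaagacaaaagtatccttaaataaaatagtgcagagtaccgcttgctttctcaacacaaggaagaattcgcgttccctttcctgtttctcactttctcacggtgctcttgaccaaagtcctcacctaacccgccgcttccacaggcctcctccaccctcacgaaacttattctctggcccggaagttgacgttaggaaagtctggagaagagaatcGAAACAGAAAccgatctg

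The sources used here assign no control to either *Ppara* siRNA, and SEAP-M for PPARa-M siRNA and GL3 for PPARa siRNA were chosen here. With PPARa-M siRNA some of the sensor probes rose. With the other siRNAs none passed against vehicle, and with PPARa siRNA none passed against GL3. Against the SEAP-M control 4 of the 7 probes rose with PPARa-M siRNA, those of *Dhx58*, *Eif2ak2* and *Zbp1* and the AK013726 probe of *Zc3hav1*, by 1.43-fold to 2.16-fold, and none fell. Of all probes 2.69% were called in that comparison in either direction. The 4 PPARa-M siRNA mice were not alike. In mice C and D all 7 probes were high, whereas in mice A and B *Eif2ak2*, *Dhx58* and 1 probe of *Zc3hav1* were high and *Ifih1* and *Tlr3* were below the pool.

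**Figure D1:**
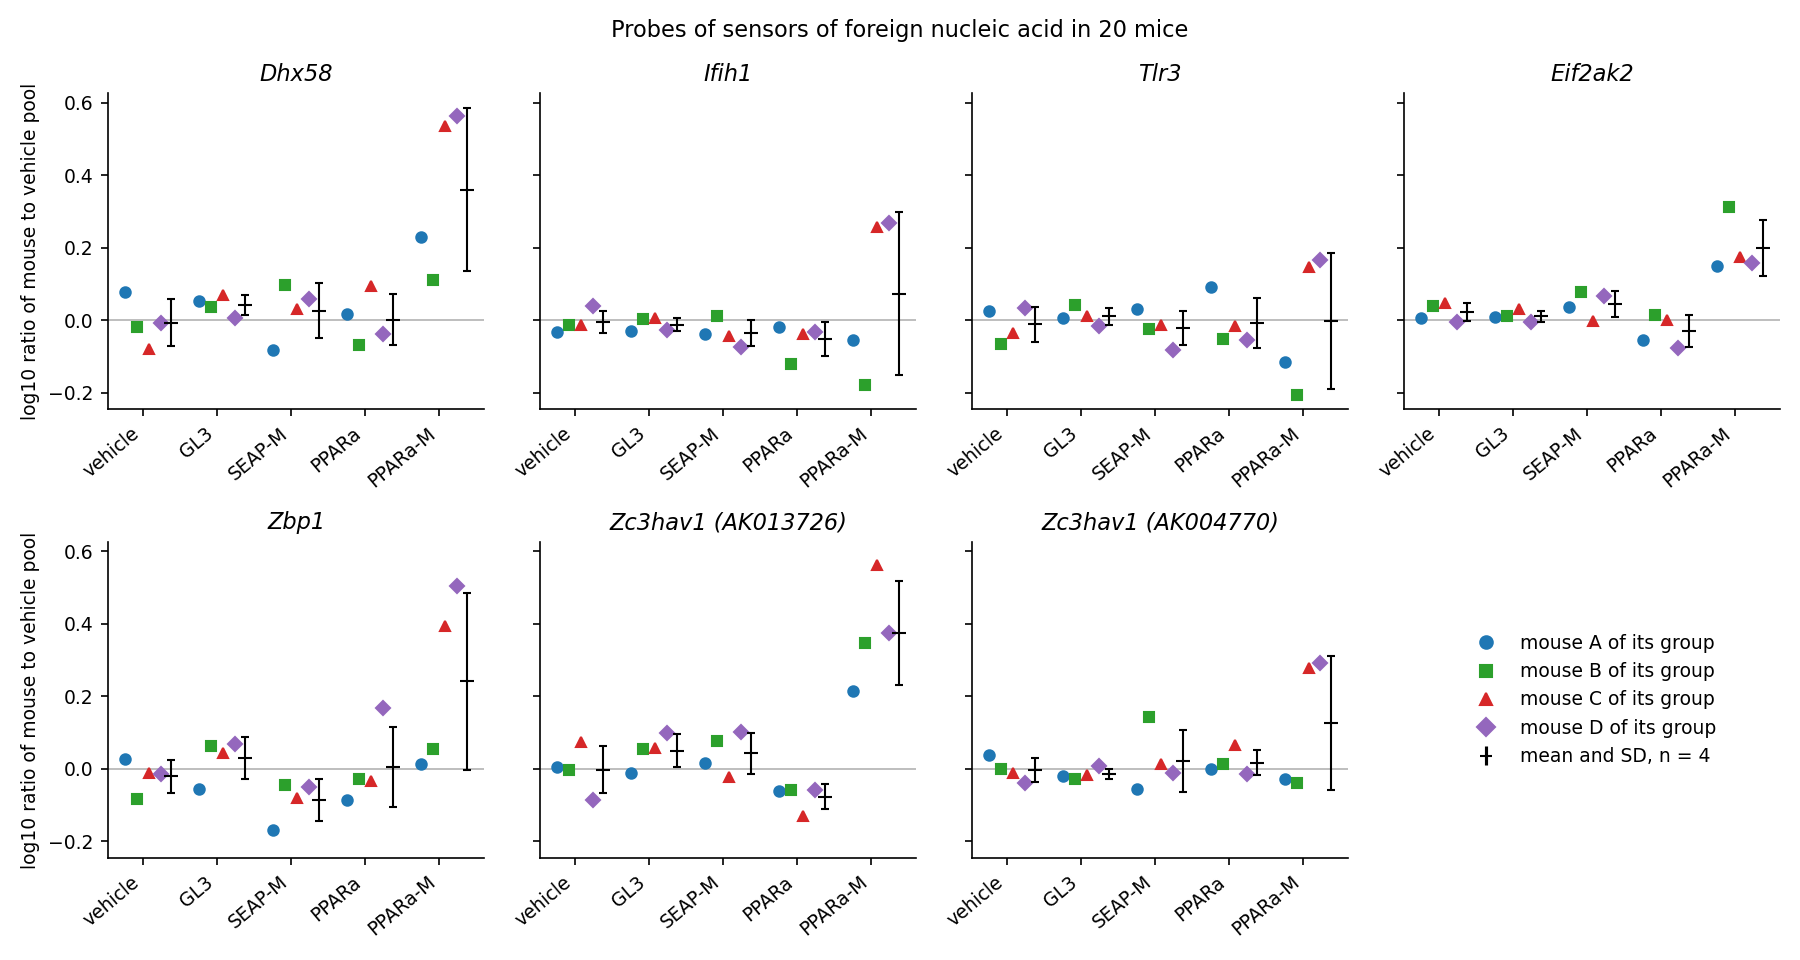
Log10 ratio of each mouse to the vehicle pool (vertical axis) for the 7 sensor probes, 1 panel each, in the 5 groups (horizontal axis, siRNA names shortened); points are mice A to D, and the black mark with its bar is the mean and SD of 4 mice. Values of the PPARa-M siRNA group are high in all 4 mice for Dhx58, Eif2ak2 and Zc3hav1 (AK013726), and high only in mice C and D for Ifih1, Tlr3, Zbp1 and Zc3hav1 (AK004770).

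Among the RIG-I-like receptors, *Dhx58* moved most. Its log10 ratios in PPARa-M siRNA mice A, B, C and D were 0.230, 0.111, 0.537 and 0.565. In SEAP-M mice they were -0.0811, 0.0961, 0.0318 and 0.0591, and in vehicle mice 0.0772, -0.0173, -0.08 and -0.0087. All 4 PPARa-M siRNA mice were above all 16 others, although mouse B only narrowly, since the highest of the others was SEAP-M mouse B. In PPARa siRNA mice the values were 0.0172, -0.0669, 0.0943 and -0.0373, and in GL3 mice 0.0537, 0.0355, 0.0705 and 0.0055, both groups overlapping vehicle. The group means were 0.361 ± 0.226 (SD, n = 4) for PPARa-M siRNA, 0.0413 ± 0.0278 for GL3, 0.0265 ± 0.0764 for SEAP-M, 0.00183 ± 0.0708 for PPARa siRNA and -0.0072 ± 0.0646 for vehicle, and the lower 4 lay within their spread of one another. *Dhx58* rose 2.16-fold against SEAP-M (log2 fold change 1.11, SE 0.25, limma adjusted p = 0.0245), 2.33-fold against vehicle (adjusted p = 0.0108) and 2.29-fold against PPARa siRNA (adjusted p = 0.00528). The call against SEAP-M was lost without PPARa-M siRNA mouse C (adjusted p = 0.0767), mouse D (0.0665), SEAP-M mouse A (0.0861) or SEAP-M mouse C (0.0622).

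*Ifih1* divided the PPARa-M siRNA mice in pairs. Its log10 ratios were -0.0542 and -0.178 in mice A and B and 0.258 and 0.267 in mice C and D. In SEAP-M mice A to D they were -0.0377, 0.013, -0.0431 and -0.0732, and in vehicle mice -0.0313, -0.0124, -0.0123 and 0.0398. Mice C and D were above all 16 other mice, and A and B below all 4 vehicle mice. In PPARa siRNA mice the ratios were -0.0183, -0.122, -0.0365 and -0.0334, and in GL3 mice -0.0282, 0.0022, 0.0075 and -0.0281, with no mouse above the highest vehicle mouse. With an SD of 0.225 around a mean of 0.0734 in the PPARa-M siRNA group, *Ifih1* did not pass against SEAP-M (log2 fold change 0.36, SE 0.23, limma adjusted p = 0.421), vehicle (0.26, adjusted p = 0.544) or PPARa siRNA (0.42, adjusted p = 0.270). Without PPARa-M siRNA mouse B the last difference was 0.70 and passed (adjusted p = 0.0252).

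The endosomal receptor *Tlr3* had the same division with smaller values. Log10 ratios in PPARa-M siRNA mice A, B, C and D were -0.116, -0.206, 0.147 and 0.167. Those in SEAP-M mice were 0.0315, -0.0232, -0.0137 and -0.0813, and those in vehicle mice 0.0253, -0.0665, -0.0352 and 0.0334. Thus C and D were the highest and A and B the lowest of all 20 mice. The mean of the group was -0.00233 ± 0.187 (SD, n = 4), so that the high and the low pair nearly cancelled. The log2 fold change was 0.06 against SEAP-M (SE 0.21, limma adjusted p = 0.904), 0.03 against vehicle (adjusted p = 0.956) and 0.02 against PPARa siRNA (adjusted p = 0.975). In PPARa siRNA mice *Tlr3* was at 0.0921, -0.052, -0.0144 and -0.0533 and in GL3 mice at 0.0053, 0.0419, 0.0118 and -0.0162.

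Of the cytoplasmic effectors that bind foreign nucleic acid, *Eif2ak2*, which encodes PKR, was the most even. Its log10 ratios in PPARa-M siRNA mice A to D were 0.150, 0.314, 0.174 and 0.157. In SEAP-M mice they were 0.0356, 0.0791, -0.0031 and 0.0661, and in vehicle mice 0.0067, 0.0388, 0.0485 and -0.004. All 4 PPARa-M siRNA mice were above the 16 others, and here mouse B, not C or D, was the highest. GL3 mice were at 0.0081, 0.0122, 0.0305 and -0.0059 and PPARa siRNA mice at -0.0552, 0.0155, -0.0005 and -0.0759. The means fell in the order PPARa-M siRNA (0.199 ± 0.0773, SD, n = 4), SEAP-M (0.0444 ± 0.0366), vehicle (0.0225 ± 0.0251), GL3 (0.0112 ± 0.0150) and PPARa siRNA (-0.0290 ± 0.0435), of which only the first lay apart from its neighbour. *Eif2ak2* rose 1.43-fold against SEAP-M (log2 fold change 0.51, SE 0.10, limma adjusted p = 0.0150), by a log2 value of 0.59 against vehicle (adjusted p = 0.00478) and 1.69-fold against PPARa siRNA (adjusted p = 0.000236). The call against SEAP-M was lost without SEAP-M mouse C (adjusted p = 0.0536).

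The probes of *Zc3hav1*, which encodes ZAP, disagreed with each other. At AK013726 the PPARa-M siRNA mice A to D had log10 ratios of 0.216, 0.349, 0.563 and 0.374. SEAP-M mice were at 0.0164, 0.0761, -0.0236 and 0.101, vehicle mice at 0.0051, -0.0044, 0.0743 and -0.0853, and GL3 mice at -0.0106, 0.056, 0.0583 and 0.0982. All 4 PPARa-M siRNA mice stood above the 16 others, with the lowest of them more than 0.1 over the highest of the rest. The rise was 2.15-fold against SEAP-M (log2 fold change 1.11, SE 0.17, limma adjusted p = 0.00372), 2.39-fold against vehicle (adjusted p = 0.00106) and 2.83-fold against PPARa siRNA (adjusted p = 7.59e-05). The PPARa siRNA mice were at -0.0602, -0.0574, -0.13 and -0.0599, all below the pool.
At AK004770 the PPARa-M siRNA mice had -0.0282, -0.039, 0.279 and 0.291, the division seen in *Ifih1*. SEAP-M mice were at -0.055, 0.144, 0.0146 and -0.0126, and vehicle mice at 0.0387, -0.0012, -0.0121 and -0.0402. This probe did not pass against SEAP-M (log2 fold change 0.34, SE 0.20, limma adjusted p = 0.391), vehicle (0.43, adjusted p = 0.215) or PPARa siRNA (0.36, adjusted p = 0.288). With both probes averaged, *Zc3hav1* passed against SEAP-M with a log2 fold change of 0.72 (adjusted p = 0.0297). Which part of the transcript each probe reads was not tested.

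*Zbp1* also divided the PPARa-M siRNA mice in pairs. Its log10 ratios were 0.0144 and 0.0535 in PPARa-M siRNA mice A and B and 0.394 and 0.504 in C and D. SEAP-M mice A to D were at -0.17, -0.0435, -0.0817 and -0.051, all below the pool, and vehicle mice at 0.0275, -0.0835, -0.0113 and -0.0157. PPARa siRNA mice were at -0.0856, -0.0295, -0.0336 and 0.167 and GL3 mice at -0.0546, 0.0616, 0.0429 and 0.0687, so that A and B of the PPARa-M siRNA group lay within the range of the other mice. *Zbp1* rose 2.13-fold against SEAP-M (log2 fold change 1.09, SE 0.28, limma adjusted p = 0.0421), but did not pass against vehicle (0.87, adjusted p = 0.0647) or PPARa siRNA (0.79, adjusted p = 0.0804). The call against SEAP-M is near the threshold. It was lost when any one of 12 of the 20 mice was left out, with adjusted p from 0.0503 (without PPARa siRNA mouse C) to 0.125 (without SEAP-M mouse A); the 12 were PPARa-M siRNA C and D, all 4 SEAP-M mice, vehicle A and B, PPARa siRNA C and GL3 B, C and D.

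**Figure D2:**
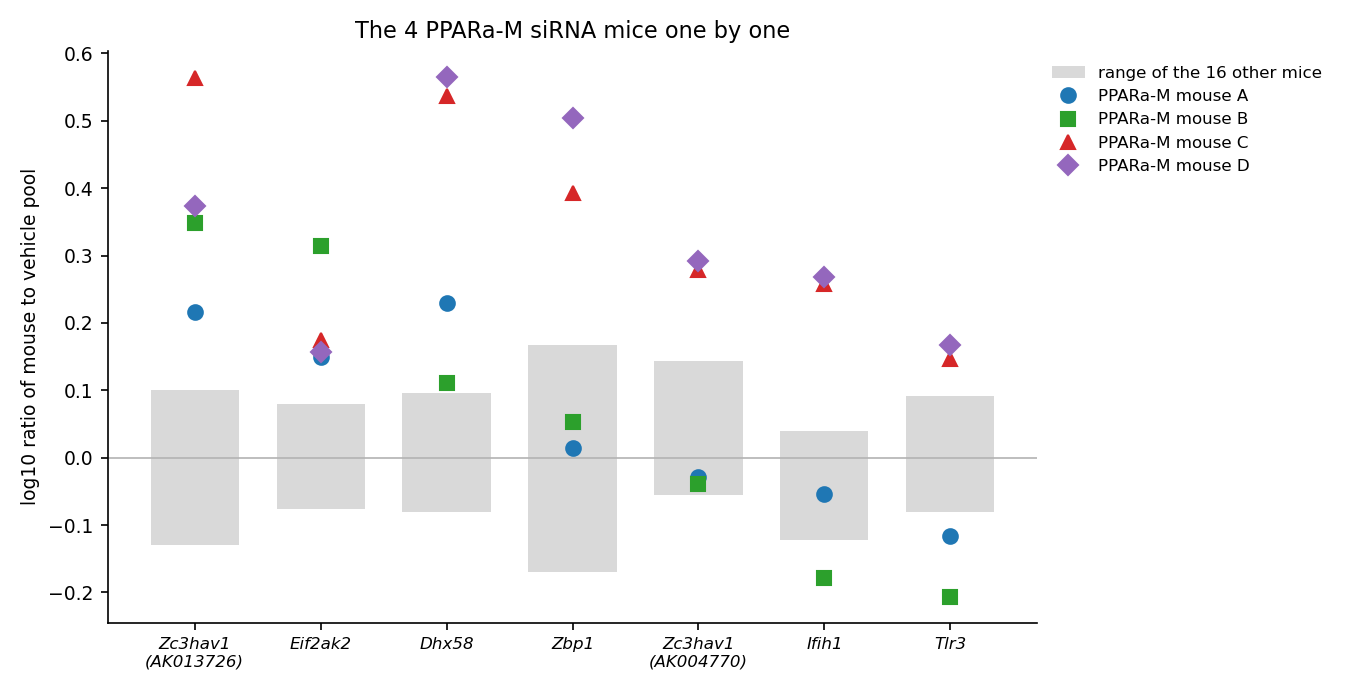
Log10 ratio to the vehicle pool (vertical axis) of the 4 PPARa-M siRNA mice, a symbol for each mouse, for the 7 sensor probes (horizontal axis); grey boxes span the 16 mice of the other groups. All 4 mice are above the grey box at the left 3 probes, only C and D at the other 4, and mouse B is below the box for Ifih1 and Tlr3 and mouse A for Tlr3.

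Mouse by mouse, a probe was counted as above vehicle when its ratio was higher than in every one of the 4 vehicle mice, and the count was set beside the share of all probes that did the same on that array. In PPARa-M siRNA mice C and D all 7 sensor probes were above vehicle, against 26.9% and 21.3% of the whole array. In mice A and B 3 and 4 were, against 23.6% and 29.8%. At 3 of the 7 probes all 4 PPARa-M siRNA mice were above all 16 other mice, which held for 1.51% of all probes.
In PPARa siRNA mice A, B, C and D 1, 0, 2 and 1 of 7 sensor probes were above vehicle, against 23.4%, 18.0%, 22.3% and 24.2% of all probes, a share near the background. In GL3 mice A to D the counts were 0, 2, 1 and 2 against 20.4%, 16.1%, 17.6% and 13.1%. In SEAP-M mice they were 0, 4, 0 and 2 against 27.5%, 16.1%, 17.1% and 21.2%. SEAP-M mouse B, with 4 probes above vehicle, was the one control with a count as high as a PPARa-M siRNA mouse; its mean log10 ratio over the 6 genes was 0.0386. That mean was 0.322 and 0.332 in PPARa-M siRNA mice C and D and 0.0530 and 0.0413 in A and B, and in the other 16 mice it ran from -0.0460 to 0.0386.

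**Figure D3:**
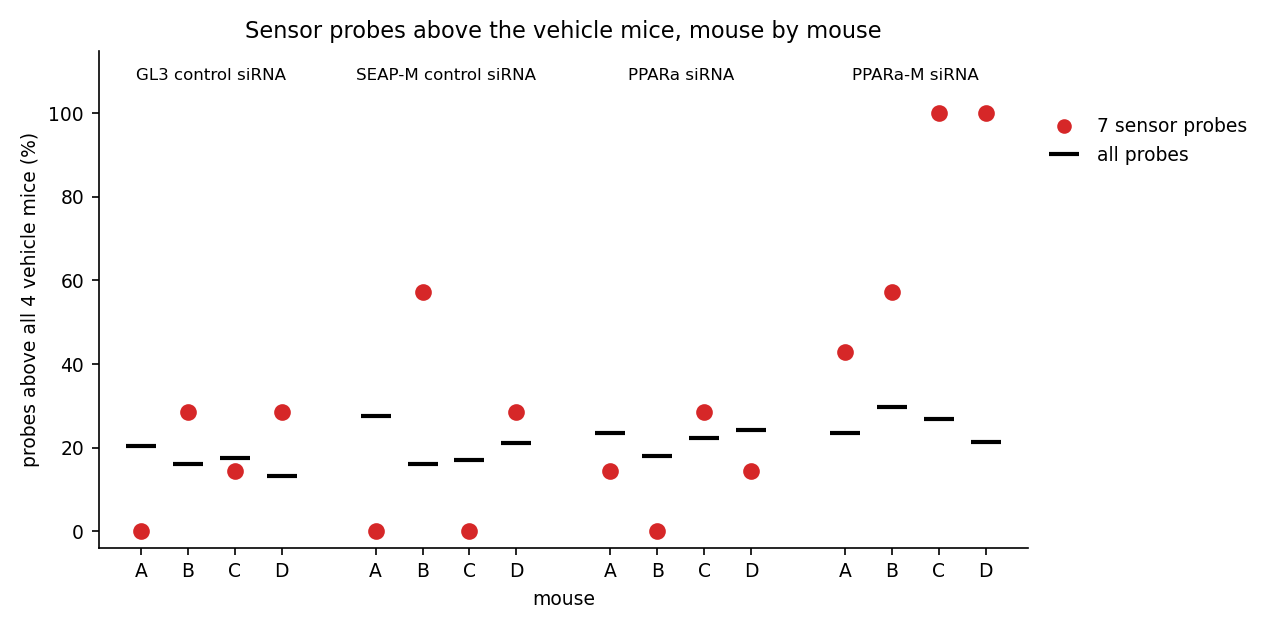
Share of probes above all 4 vehicle mice in percent (vertical axis) in each of the 16 siRNA-treated mice (horizontal axis, by group); red points are the 7 sensor probes and black bars all probes on the same array. All 7 sensor probes are above vehicle in PPARa-M siRNA mice C and D, and 0 to 4 in every other mouse.

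The comparisons with control siRNAs, vehicle and the other *Ppara* siRNA share the PPARa-M siRNA mice, so that they are not separate evidence of a rise. Against vehicle 3 of the 7 sensor probes rose and none fell, with 6.83% of all probes called, and against PPARa siRNA also 3, with 10.2% called. The median log2 fold change of the 7 probes was 0.51 against SEAP-M, 0.59 against vehicle and 0.76 against PPARa siRNA, where the medians of all probes were -0.01, -0.01 and -0.03. At all 7 probes the log2 fold change was above 0 in each of these comparisons.
PPARa siRNA itself called none. Against GL3 0 of the 7 probes passed with limma, with 0.145% of all probes called; at an unadjusted p under 0.05 there was 1, AK013726 of *Zc3hav1*, with a log2 fold change of -0.42 (SE 0.17, adjusted p = 0.780). Against vehicle 0 passed, also at an unadjusted p under 0.05, with 0.166% of all probes called. The control siRNAs gave 0 calls among the 7 probes against vehicle (GL3 with 0.00851% and SEAP-M with 0.00426% of all probes called) and against each other (0.00%), and 0 at an unadjusted p under 0.05 in any of these comparisons.

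**Figure D4:**
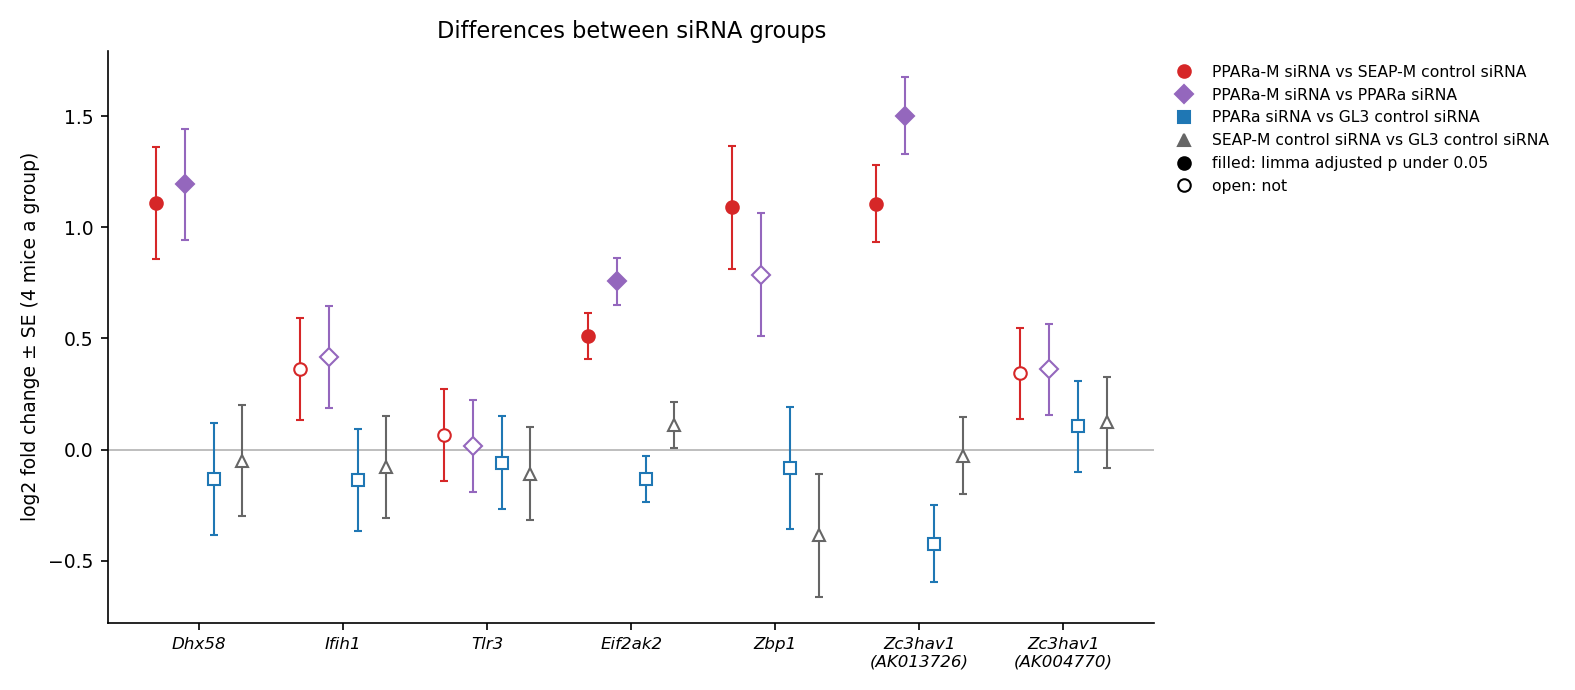
Log2 fold change with its standard error from limma (vertical axis; 4 mice a group) for the 7 sensor probes (horizontal axis) in 4 comparisons, with filled symbols where the adjusted p was under 0.05. Filled symbols occur only in the comparisons of PPARa-M siRNA with SEAP-M (4 probes) and with PPARa siRNA (3 probes), and all values of PPARa siRNA against GL3 lie between -0.42 and 0.10.

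PPARa-M siRNA was not set against GL3, nor PPARa siRNA against SEAP-M, although the mean log10 ratio of *Zbp1* was -0.086 in SEAP-M and 0.030 in GL3 mice. Whether the effect of PPARa-M siRNA over SEAP-M differed from that of PPARa siRNA over GL3 was tested directly. The difference passed for AK013726 of *Zc3hav1* (log2 1.53, SE 0.25, limma adjusted p = 0.00669) and for *Eif2ak2* (log2 0.65, SE 0.15, adjusted p = 0.0322), 2 of the 7 probes, with 1.67% of all probes called. It did not pass for *Dhx58* (1.24, adjusted p = 0.0930), *Zbp1* (1.17, adjusted p = 0.169), *Ifih1* (0.50, adjusted p = 0.563), AK004770 (0.24, adjusted p = 0.784) or *Tlr3* (0.12, adjusted p = 0.902). The call of *Eif2ak2* was lost without any one of 7 mice, PPARa siRNA A, C or D, SEAP-M A or C, or GL3 B or C, with adjusted p from 0.0512 to 0.0789, whereas that of AK013726 was kept without any one of the 20.

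Because PPARa-M siRNA mice C and D stood apart at 5 of the 7 probes, the tests were repeated without them, which left 2 mice in the group. That choice was made after the data were seen and from these same values. All adjusted p-values of this fit are therefore descriptions and no separate support for a rise. Against SEAP-M 2 sensor probes then passed, with 4.95% of all probes called, AK013726 of *Zc3hav1* (log2 fold change 0.80, limma adjusted p = 0.0139) and *Eif2ak2* (0.62, adjusted p = 0.0163). *Dhx58* (0.48, adjusted p = 0.122) and *Zbp1* (0.40, adjusted p = 0.223) no longer did. Against vehicle 5 passed, with 13.6% of all probes called. AK013726 (0.95, adjusted p = 0.00256), *Eif2ak2* (0.69, adjusted p = 0.00370) and *Dhx58* (0.59, adjusted p = 0.0350) were higher than in vehicle mice. The other 2 were *Tlr3* and *Ifih1*, with log2 fold changes of -0.50 and -0.37. Their sign follows from leaving out the 2 mice with the high values, so these are descriptions of mice A and B, with no test.
The 4 calls against SEAP-M also depended on the scale and on which arrays gave the spread. With arrays quantile-normalized, with arrays scaled to one interquartile range, or with only the 8 arrays of PPARa-M siRNA and SEAP-M in the fit, 0 of the 7 probes passed. The log2 fold change of AK013726 was 0.70 (adjusted p = 0.138) after quantile normalization and 1.11 (adjusted p = 0.0832) in the fit of 8 arrays, and that of *Eif2ak2* 0.29 (0.189) and 0.51 (0.143). All 7 log2 fold changes kept their sign in the fit of 8 arrays, since the same means were compared there.

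Over the 20 mice 20 of the 21 pairs of sensor probes had a Pearson correlation above 0, and 14 were above 0.5. Over the 18 mice without PPARa-M siRNA C and D 10 of the 21 were above 0 and 2 above 0.5. Over the 20 mice *Eif2ak2* and AK013726 of *Zc3hav1* had a correlation of 0.833, and 0.882 over the 18. *Tlr3* and *Ifih1* had 0.834, and 0.726 over the 18. The pair below 0 over the 20 mice was *Tlr3* and *Eif2ak2*, with -0.245, and -0.791 over 18. The probes of *Zc3hav1* had 0.622 with each other over 20 mice and -0.221 over 18. These values are descriptions; mice of one group and the common pool are shared by all of them.

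The genes whose ratios were most like the mean of the 6 sensors, by Pearson correlation over the 20 mice, were *Isg15*, a ubiquitin-like modifier (r = 0.977), *Gm9706* (0.973), *Trim30a* (0.973), *Ifit3* (0.972), *Ifit1*, which binds foreign RNA (0.970), *Ifi203* (0.962), the dynamin-like GTPase *Mx2* (0.962) and *Phf11a* (0.961). Most of the likeness came from PPARa-M siRNA mice C and D. *Ifit1* was at log10 ratios of 1.26 and 1.23 in these mice and between -0.220 and 0.116 in the other 18, and *Mx2* at 0.855 and 0.903 against -0.0736 to 0.118. Over the 18 mice r fell to 0.541 for *Ifit1* and 0.254 for *Mx2*, and stayed highest for *Ifi203*, at 0.826.

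Other genes of the pathway were taken from 4 lists, to be read against the 2.69% of all probes called against SEAP-M, the 18.6% with an unadjusted p under 0.05 there and the 6.83% called against vehicle. Of 28 probes (24 genes) of other sensors of nucleic acid 0 passed against SEAP-M in either direction with limma, 13 had an unadjusted p under 0.05 (10 of them higher), and their list median of log2 fold changes was 0.21. Against vehicle 3 rose and 1 fell, of which *Prkra* and *Oas1c* are named after their values were seen. The one that fell was *Prkra*, which encodes PACT, a protein activator of PKR (log2 fold change -0.49, SE 0.10, adjusted p = 0.0110), and *Oas1c* rose by 0.28 (adjusted p = 0.0243). *Oasl2*, an oligoadenylate synthetase-like protein, had a log2 fold change of 0.53 against SEAP-M (adjusted p = 0.0558) and rose against vehicle (0.62, adjusted p = 0.0195). *Ifit3* was at 1.46 (adjusted p = 0.0845) and rose against vehicle (1.66, adjusted p = 0.0341). The mean log10 ratio of this list was 0.191 and 0.201 in PPARa-M siRNA mice C and D and 0.0170 and -0.0116 in A and B, the order of the members themselves.
Of 30 probes (21 genes) of adaptors and signalling below the sensors, which carry the message from receptor to nucleus, 0 passed against SEAP-M, 3 had an unadjusted p under 0.05, and the list median was 0.05. These were *Irf7*, a master factor of interferon genes (0.78, adjusted p = 0.0675), and *Irak1* (-0.19, adjusted p = 0.245) and *Traf2* (-0.18, SE 0.08). *Irf7* rose against vehicle (0.84, adjusted p = 0.0329) and PPARa siRNA (0.90, adjusted p = 0.0160), and was the 1 probe of this list called against vehicle. Of 24 probes (22 genes) of interferons, their receptors and signal transducers 1 rose and 1 fell, namely *Irf1*, which encodes an interferon regulatory factor (log2 fold change 0.61, SE 0.13, adjusted p = 0.0189), and *Ifngr2*, a chain of the interferon gamma receptor (-0.53, SE 0.13, adjusted p = 0.0331). The log10 ratios of *Irf1* ran from 0.0559 to 0.195 in PPARa-M siRNA mice, from 0.0699 to 0.165 in PPARa siRNA, from 0.0696 to 0.158 in GL3, from -0.132 to 0.0391 in SEAP-M and from -0.0476 to 0.0806 in vehicle mice. *Irf1* thus overlapped in 3 siRNA groups; it rose with PPARa-M siRNA against vehicle as well (0.48, adjusted p = 0.0344), and against PPARa siRNA its log2 fold change was 0.08 (adjusted p = 0.758). Against vehicle 1 probe of this list rose and 2 fell. At an unadjusted p under 0.05 against SEAP-M with limma, 5 probes of the list were higher and 5 lower.
Of 21 probes (19 genes) of restraints on sensing and interferon signalling 1 rose, *Socs1*, an inhibitor of JAK kinases (0.79, SE 0.18, adjusted p = 0.0269), and none fell; against vehicle 2 rose and 1 fell. *Isg15* was at 1.42 (adjusted p = 0.0856), and rose against vehicle (1.48, adjusted p = 0.0485) and PPARa siRNA (1.66, adjusted p = 0.0209). *Rnf125*, a ubiquitin ligase that acts on RIG-I, was at -0.63 (adjusted p = 0.0926). Calls of PPARa-M siRNA against PPARa siRNA are read beside 10.2% of all probes called. There 7 probes of other sensors rose and 1 fell, and 2 of adaptors rose and 1 fell. In the interferon list 1 rose and 0 fell, and among restraints 4 rose and 1 fell.

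In whole liver, more cells of a type and more RNA per cell cannot be told apart, and ratios to a pool do not show whether a cell type's markers were present at all. Markers of immune cells, which also carry such sensors, were therefore set beside the members as ratios. Against SEAP-M 0 of 10 macrophage and Kupffer cell marker probes, 0 of 9 plasmacytoid dendritic cell, 0 of 6 B cell, 0 of 12 T and NK cell and 0 of 9 neutrophil marker probes passed with limma. Of all probes 2.69% were called there, so 0 calls in lists this short do not show that the markers were unchanged. At an unadjusted p under 0.05 these lists held 0, 3, 0, 1 and 0 probes, beside 18.6% of all probes. Against vehicle 1 plasmacytoid dendritic cell probe rose and 0 of the other 4 lists passed, with 6.83% of all probes called. Against PPARa siRNA, with 10.2% called, 3 plasmacytoid dendritic cell probes rose, 1 macrophage and 2 neutrophil probes fell, and 0 B cell or T and NK cell probes passed. The mean of the macrophage list was -0.0302 and -0.0191 in PPARa-M siRNA mice C and D, where the sensors were highest, and 0.0463 and -0.00588 in A and B. In SEAP-M mice it ran from -0.0895 to 0.0674, and in vehicle mice from -0.0781 to 0.0665.
In the plasmacytoid dendritic cell list the smallest p against SEAP-M belonged to *Pacsin1* (log2 fold change -0.29, adjusted p = 0.0999) and to *Tcf4* at 2 probes (0.37 and 0.47, adjusted p = 0.206 and 0.223), in opposite directions. Both *Tcf4* probes were higher than with PPARa siRNA (0.55 and 0.90, limma adjusted p = 0.0306 and 0.00885). Neither passed with PPARa-M siRNA against vehicle (0.40 and 0.27, adjusted p = 0.125 and 0.457). With PPARa siRNA against vehicle they were at -0.15 and -0.63 and did not pass either, so low values with PPARa siRNA are part of the difference. The mean of this list ran from 0.0450 to 0.173 in PPARa-M siRNA mice, from -0.0175 to 0.143 in SEAP-M and from -0.0697 to 0.0626 in vehicle mice, with its highest value in mouse B. The B cell list was between -0.0266 and -0.00313, the T and NK cell list between -0.0185 and 0.0116 and the neutrophil list between -0.0820 and -0.0278 in PPARa-M siRNA mice, within or near the ranges of vehicle. In PPARa siRNA mice the neutrophil list reached 0.716.
Against SEAP-M, with 2.69% of all probes called, 1 of 10 endothelial probes rose, D88690 of the VEGF receptor gene *Flt1* (0.53, limma adjusted p = 0.0329). The endothelial list ran from 0.0345 to 0.0670 in PPARa-M siRNA mice and from -0.00741 to 0.0390 in SEAP-M mice, its vehicle range being -0.0401 to 0.0528. Of the endothelial probes 2 rose against vehicle and 2 against PPARa siRNA, with 6.83% and 10.2% of all probes called. Of 17 hepatocyte probes 1 rose and 1 fell, *Hnf4a* (AF015275, 0.35, adjusted p = 0.0446) and the cytochrome *Cyp2e1* (-0.57, adjusted p = 0.0435), and the list ran from 0.0109 to 0.0579 with PPARa-M siRNA, from -0.0121 to 0.0327 with SEAP-M and from -0.0169 to 0.0382 with vehicle. Another *Hnf4a* probe did not pass against SEAP-M (0.25, limma adjusted p = 0.0743). Against vehicle 3 hepatocyte probes rose and 1 fell, and against PPARa siRNA 5 rose and 0 fell. AF015275 passed against vehicle (0.47, adjusted p = 0.00788). The other *Hnf4a* probe (0.11, adjusted p = 0.372) and *Cyp2e1* (-0.22, adjusted p = 0.378) did not pass there. The part of any cell type in the sensor values was not tested.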

How the data were processed

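Liver RNA of 20 mice was hybridized against a vehicle pool on custom 2-colour oligonucleotide arrays, with the titles giving pool and mouse in the same order and the labels the same dyes on every array. No dye swap was thus recorded, and a dye effect cancels only between groups. Which dye the pool carried is not given in the sources used here. The authors deposited a log10 ratio of 23493 probes per array, already normalized in a way not given in the sources used here. Signals and errors of single ratios were not used here, so the platform error model named in the study's methods was not repeated, and detection or saturation of single spots is unknown. Whether the vehicle mice were also in the pool is not given in the sources used here. Of the 140 member values 0 stood at the limit of 2 or -2. Of all probes 18790 had 1 gene symbol in the platform annotation, 65 several and 4638 none; the last 2 kinds were tested but not named.

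Log2 values (ratios times 3.32) entered a linear model in limma 3.58.1 (R 4.3.3) that gave each of the 5 groups its mean over all 20 arrays, with moderated variances, no covariate and 9 comparisons. Adjusted p-values are Benjamini-Hochberg values over all 23493 probes within a comparison, and a probe was called at an adjusted p under 0.05. Replicates are single mice, and the number of arrays (4 per group) limits the precision. Letters A to D were not taken to pair mice across groups, which the sources used here do not state. Named are all members, *Ppara*, up to 3 probes with the smallest p against SEAP-M from each list, and the 8 genes most correlated with the members' mean. *Prkra* and *Oas1c* were added after their values were seen, as calls against vehicle. Members and lists were chosen with earlier results of these data known. The lists were other sensors, adaptors, interferons with receptors and transducers, restraints, and markers of 7 cell types. Alternatives were other scalings, array weights, robust moderation, a replicate block, fits of the compared arrays only, 1 value per gene, a stricter threshold, a minimum fold of 1.5, and leaving out mice. The scripts were tested on simulated data. Python 3.11.15, numpy 2.4.6, pandas 2.3.3 and matplotlib 3.10.9 served for correlations, promoters and figures.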

Additional observations from a re-analysis of the deposited data

Results flagged for a closer look

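Among 35 groups of 4 values (7 sensor probes in 5 groups), 2 held a mouse far from its group, where chance gives about 1 in 20. *Zc3hav1* at AK013726 was at a log10 ratio of -0.130 in PPARa siRNA mouse C, against -0.0602 to -0.0574 in the other mice of that group. *Eif2ak2* was at 0.314 in PPARa-M siRNA mouse B, against 0.150 to 0.174 in the other mice of that group. The same mouse had the lowest *Tlr3* and *Ifih1* of all 20, at -0.206 and -0.178. Its array also had the largest interquartile range of all 20, at 0.1245. Whether the extreme values in this mouse are particular to these genes was not tested. The effects of PPARa-M siRNA over SEAP-M and of PPARa siRNA over GL3 differed by a log2 value of 1.53 for AK013726 and of 0.65 for *Eif2ak2*, by the test of the difference given above. The causes were not tested.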

How the results depend on the processing

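Of the 7 sensor probes 4 passed for PPARa-M siRNA against SEAP-M, 3 against vehicle, 3 against PPARa siRNA and 2 in the difference between the siRNAs. With quantile normalization 0, 0 and 0 passed against SEAP-M, against vehicle and in the difference between the siRNAs. With arrays scaled to one interquartile range these were 0, 1 and 0, and with only the compared arrays in the fit 0, 0 and 1. The calls of *Eif2ak2* and AK013726 of *Zc3hav1* against PPARa siRNA were kept under each of these settings. Array quality weights gave 5 against vehicle, 5 against PPARa siRNA and 4 in the difference. All probes called with weights are given below against SEAP-M and in the difference only, so these gains are not read as particular to the sensors. At an adjusted p under 0.01 the counts against SEAP-M and in the difference were 1 and 1, and with 1 value per gene the difference kept 1. Without PPARa-M siRNA mice C and D together, chosen after the data were seen and from these same values, 2 passed against SEAP-M and 5 against vehicle, as a description only. *Tlr3* was then at -0.50 against vehicle and -0.51 against PPARa siRNA, and *Ifih1* at -0.37 against vehicle. These signs follow from leaving out the mice with the high values and were given no test. With each mouse left out in turn the counts ranged from 1 to 4 against SEAP-M (2 without PPARa-M siRNA C or D or SEAP-M A, 1 without SEAP-M C), from 3 to 4 against vehicle, from 3 to 5 against PPARa siRNA (5 without PPARa-M siRNA B) and from 1 to 3 in the difference. The share of all probes called in these fits is not given here, so the changes are not read as particular to the sensors. In the other 5 comparisons 0 passed under every setting run. The number of all probes called against SEAP-M moved from 632 to 14 with quantile normalization, 27 with scaling, 60 with the compared arrays only, 1057 with weights, 1162 without C and D, 388 genes with 1 value per gene, 249 above 1.5-fold and 119 at 0.01. Under quantile normalization, scaling and the compared arrays only it moved from 1604 to 19, 36 and 60 against vehicle and from 2388 to 699, 822 and 985 against PPARa siRNA, and under the first 2 of these from 392 to 7 and 0 in the difference. Without C and D it was 3201 against vehicle and 247 in the difference, and with weights 924 in the difference. In the main fit at an adjusted p under 0.01 the number was 233 against vehicle, 1012 against PPARa siRNA and 38 in the difference. Above 1.5-fold it was 500 against vehicle and 922 against PPARa siRNA. The main fit shares 1 spread over the 5 groups. For *Dhx58*, however, the SD of the log10 ratios was 0.226 with PPARa-M siRNA and 0.0278 to 0.0764 in the other groups. For *Zbp1* it was 0.244 with PPARa-M siRNA and 0.0461 to 0.111 in the others. A standard error from the shared spread is then smaller than the PPARa-M siRNA mice alone would give. Fits of fewer arrays also have fewer degrees of freedom. The part of either in the changed counts was not tested.

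With the letter as a replicate block 4 sensor probes passed against SEAP-M, 4 against vehicle, 4 against PPARa siRNA and 2 in the difference. *Zbp1* was the one gained (limma adjusted p = 0.0364 and 0.0429). The share of all probes called with the block is not given here, so the gain is not read as particular to the sensors. Whether the letters pair mice across groups is not given in the sources used here. Deviations of same-letter mice correlated between -0.200 and 0.312 over 40 pairs, with 13 over 0.1. Their median was -0.0178, against 0.00519 for mice of different letters, and 10 of 20 arrays correlated best with their own letter. These values do not settle a pairing. Signal over background was not analysed here, so a weakly expressed sensor cannot be told from one that changed little.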
